A study of Vitis vinifera with 42 samples.

Results

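Bagged Cabernet Sauvignon berries (T1) were compared with berries grown in sunlight (T2) at E-L 35, the stage of the modified Eichhorn-Lorenz scale at which the first berries colour and soften. T1 clusters had been enclosed in ventilated, kraft paper bags with a black lining 3 weeks after flowering (3 WAF, E-L 29) and stayed covered up to harvest at E-L 38, and T2 clusters were never covered. Each group held 3 biological replicates, called A, B and C, and each treatment was applied to 15 own-rooted field vines. RNA came from 50 pooled berries per replicate after the seeds had been taken out. The genes described are the 17518 of 21902 tested genes, out of 28940 in the table, that reached an average of 1 FPKM or more in T1 or T2 here. FPKM count the fragments of a gene per length of its transcript, scaled to all mapped fragments of the library. The comparison asks which transcripts of light perception, phenolic synthesis and ripening differ when light is kept from the cluster up to the onset of ripening. Light withheld at E-L 35 and light withheld during the weeks before cannot be told apart in it, and neither can the slightly warmer and drier air recorded inside the bags.

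Plants read light with phytochromes, cryptochromes, phototropins and the UV-B receptor UVR8. In the dark the COP1/SPA ubiquitin ligase marks the bZIP factors HY5 and HYH for degradation, and in the light these factors accumulate and bind promoters of photosynthesis, photoprotection and flavonoid genes, as known from Arabidopsis. Flavonoids are built from phenylalanine through PAL, C4H and 4CL, then CHS, CHI and F3H, and hydroxylases on the B-ring (F3'H and F3'5'H) set whether red or blue anthocyanins follow. In grape skin the factor VviMYBA1 switches on UFGT, the glucosyltransferase that gives stable anthocyanins, at véraison. Around the same time chloroplast genes are turned down and sugar accumulates, and abscisic acid is known to promote ripening.

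The labelled stage of T2 was checked against a gene of colour onset, and that of T1 was not checked in this way. In T2 berries VIT_202s0033g00410 (VviMYBA1) averaged 0.58 FPKM at E-L 31, 22.6 ± 3.46 FPKM at E-L 35 (SD, n = 3) and 9.04 FPKM at E-L 36, so that its highest level of the 3 stages stood at E-L 35. Total FPKM ranged from 635822 to 671147 over the 6 libraries, and 21262 to 21901 genes were above 0. Replicates of a group correlated across genes at r = 0.968 to 0.985, where genes are not independent replicates. Libraries of different treatments correlated at r = 0.961 to 0.967, only just below that range. The most abundant transcript, VIT_205s0049g00520, which carries no annotation, held 8.74, 7.53 and 11.9% of the total in T1 libraries A, B and C, against 16.8, 13.2 and 12.4% in T2. Replicate C of each treatment lay towards the other treatment in this and in many of the genes below. Seed transcripts, a sign of tissue left after deseeding, were summed over 11 tested genes of storage and late embryogenesis abundant proteins. The sum was 380.4, 439 and 897 FPKM in T1, against 259.8, 273 and 326 FPKM in T2. Most of it in T1 replicates A and B came from VIT_215s0046g02110 (269 and 332 FPKM), which had 151 to 199 FPKM in T2. The higher sums of A and B over T2 thus lay mainly in a gene present in all 6 libraries. Of the 19 such genes in the table, 6 exceeded 10 FPKM in T1 replicate C and in no other of the 6 libraries, among them the 7S globulin VIT_214s0128g00200, with 189 FPKM in T1 replicate C and at most 3.05 FPKM elsewhere. A further 5 were listed at 0 in all 6 libraries.

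Bagged berries at E-L 35 held less transcript of most photoprotection, light-harvesting and CHS, CHI, F3H and F3'5'H genes and more of most cytosolic ribosomal protein genes. By limma on log2(FPKM + 1), 488 of the 17518 genes (2.79%) were DEGs, with an adjusted p under 0.05 and at least a 2-fold difference. Of these, 172 (0.982%) were higher and 316 (1.80%) lower in T1. Without the fold threshold 1449 genes (8.27%) were higher and 1069 (6.10%) lower, and those are the shares against which gene groups are read below, since for members of a group the adjusted p alone decides the call. The median log2 fold change over all 17518 genes was 0.03. The libraries of T1 and T2 did not overlap in 165 of the 172 higher and 308 of the 316 lower DEGs, while 19.9% of all genes lay wholly higher and 16.0% wholly lower in T1 regardless of any test. The count rested in part on single libraries, with 352 DEGs without T1 replicate B and 592 without T1 replicate C. Without replicate C of both treatments, a setting added after seeing the data, 355 genes were higher and 346 lower.

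**Figure D1:**
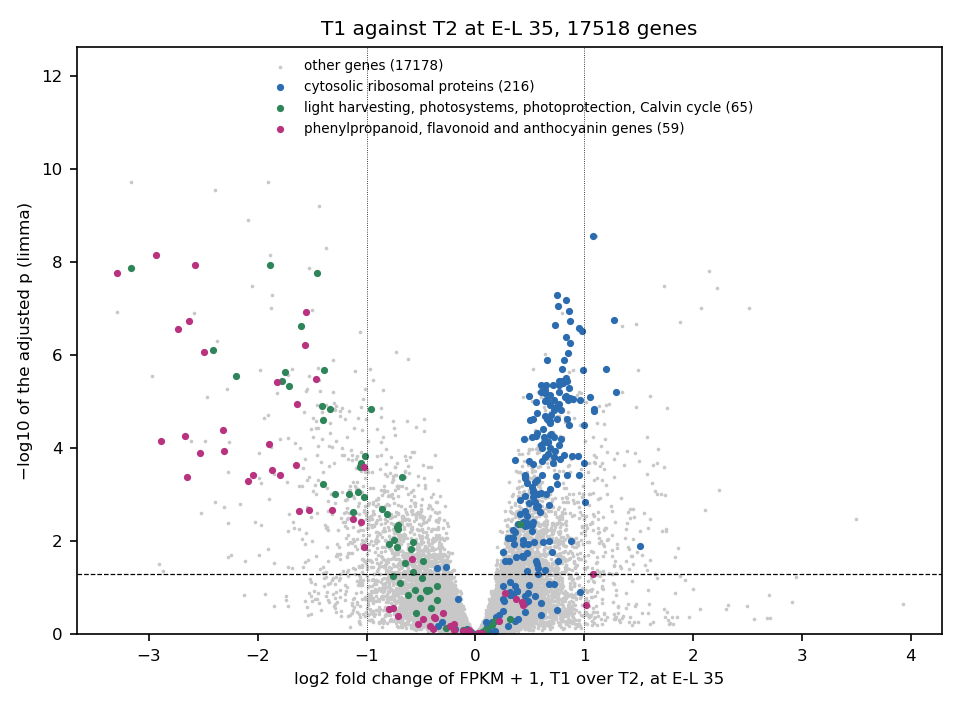
Log2 fold change of FPKM + 1 (T1 over T2, horizontal) against −log10 of the limma adjusted p (vertical) for 17518 genes at E-L 35, with the adjusted p of 0.05 dashed and 2-fold differences dotted. The 216 cytosolic ribosomal protein genes form a narrow cloud to the right, with 167 higher, and of 59 genes from PAL to UFGT with anthocyanin decoration and transport, leaving out FLS, LAR, ANR, CCR and CAD, 31 lie lower and 0 higher.

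Among light-signalling genes the differences fell on a few members. The HY5 homolog HYH (VIT_205s0020g01090), a bZIP factor whose BLAST hit carries another name, stood at 0.04, 0.16 and 0.15 FPKM in T1 replicates A, B and C, against 9.72, 8.41 and 8.86 FPKM in T2, with a log2 fold change of -3.16 (SE 0.24, limma adjusted p = 2e-10). All T1 libraries were thus close to 0 and the T2 libraries close together. HY5 itself (VIT_204s0008g05210) gave 8.08, 5.97 and 5.77 FPKM in T1 and 15.3, 12.9 and 13.6 FPKM in T2, a smaller difference (-0.98, limma adjusted p = 0.0053) that also left no overlap. The cryptochrome CRY2 (VIT_209s0002g05990), a blue-light receptor, was at 0.28, 0.39 and 0.56 FPKM in T1, against 3.27, 2.85 and 2.37 FPKM in T2 (-1.44, limma adjusted p = 3.4e-06). The BLAST hit of this gene is a DNA photolyase, a family that shares its ancestry with cryptochromes. Of 30 photoreceptor genes, 5 were lower and 1 higher in T1, with a median of -0.16, against 0.03 over all genes. Of 38 genes of HY5, COP1, SPA1 and the B-box factors, 7 were lower and 1 higher, with a median of 0.01. None of 16 circadian clock genes passed in limma, and 4 of them had an unadjusted p under 0.05.

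DNA photolyases, which use blue light to repair UV lesions, were lower in 3 of 5 genes and higher in 0. The one with the largest difference (VIT_204s0008g02670) had 0.99, 0.26 and 0.42 FPKM in T1 and 7.72, 9.44 and 7.49 FPKM in T2 (-2.59, SE 0.28, limma adjusted p = 1.2e-07). It was lower at the neighbouring stages as well, with log2 fold changes of -1.57 (E-L 31) and -2.45 (E-L 36). A glutathione S-transferase (VIT_201s0026g01340), of a family that detoxifies by adding glutathione, stood at 13.9, 14.4 and 17.3 FPKM in T1, against 60.6, 61.2 and 52.4 FPKM in T2 (-1.87, limma adjusted p = 5.2e-08), beside -1.46 (E-L 31) and -1.95 (E-L 36).

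Photosynthesis genes were lower in bagged berries across complexes. Of 20 light-harvesting complex genes, which encode the chlorophyll-binding antenna, 13 were lower and 0 higher, with a median log2 fold change of -1.05. A light-harvesting complex II gene (VIT_212s0028g00320) was at 0.22, 0.92 and 0.22 FPKM in T1 and 11.5, 12.3 and 11.2 FPKM in T2 (-3.16, SE 0.30, limma adjusted p = 1.4e-08). A more abundant one (VIT_212s0057g00630) had 6.06, 6.56 and 5.64 FPKM in T1 and 19.8, 15.6 and 20.2 FPKM in T2 (-1.46, limma adjusted p = 1.7e-08). In both genes every T1 library was below every T2 library. Of 29 nuclear genes for photosystem subunits and their electron carriers, 13 were lower and 1 higher (median -0.56). Among them plastocyanin (VIT_218s0001g00760), the copper protein that carries electrons to photosystem I, gave 26.2, 25.3 and 19.6 FPKM in T1, against 45.5, 50.6 and 56.9 FPKM in T2 (-1.08, limma adjusted p = 0.0009). In plastocyanin replicate C was the lowest T1 library and the highest T2 library, so the C libraries were farther apart there than the A and B libraries.

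Carbon fixation and pigment genes followed with smaller differences. Of 12 Calvin cycle genes, 7 were lower and 0 higher (median -0.70). The small subunit of RuBisCO (VIT_217s0000g03690), which fixes carbon dioxide, stood at 65.5, 64.7 and 48.7 FPKM in T1 and 175, 158 and 217 FPKM in T2 (-1.60, SE 0.18, limma adjusted p = 2.4e-07). Of 18 chlorophyll synthesis genes 4 were lower and 0 higher (median -0.11), of which subunit H of magnesium chelatase (VIT_208s0007g08540), at the branch towards chlorophyll, had 5.05, 4.65 and 3.2 FPKM in T1, against 10.8, 10.6 and 12.8 FPKM in T2 (-1.24, limma adjusted p = 2.1e-05). Of 19 carotenoid synthesis genes 2 were lower and 0 higher, with a median of 0.02. The pigment lists thus stood nearer to the share of lower calls over all genes than the antenna list.

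All 4 photoprotection genes were lower in T1, with a median of -1.64. The early light-induced protein ELIP (VIT_205s0020g04110), which binds free chlorophyll under strong light, reached 42.1, 42.7 and 43.7 FPKM in T1, against 215, 208 and 181 FPKM in T2 (-2.20, limma adjusted p = 2.9e-06). PsbS (VIT_218s0001g02740), which turns excess excitation into heat, had 12.6, 12.6 and 8.91 FPKM in T1 and 42.2, 42.1 and 49.2 FPKM in T2 (-1.89, limma adjusted p = 1.1e-08). Violaxanthin de-epoxidase (VIT_204s0043g01010), which makes the zeaxanthin that works with PsbS, gave 2.32, 1.39 and 3 FPKM in T1 and 6.79, 7.09 and 8.06 FPKM in T2 (-1.39, limma adjusted p = 2.1e-06). No library of one treatment reached the range of the other in these 3 genes. The remaining member, a gene annotated as violaxanthin de-epoxidase (VIT_207s0031g01770), was at 0.76, 0.64 and 0.85 FPKM in T1 and 1.77, 1.21 and 1.86 FPKM in T2 (-0.57, limma adjusted p = 0.01). Its limma call was lost without T1 replicate B (-0.53, limma adjusted p = 0.059), T2 replicate A (-0.52, adjusted p = 0.053) or T2 replicate C (-0.50, adjusted p = 0.054). In bulk berries fewer cells of a type and less RNA per cell cannot be told apart.

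**Figure D2:**
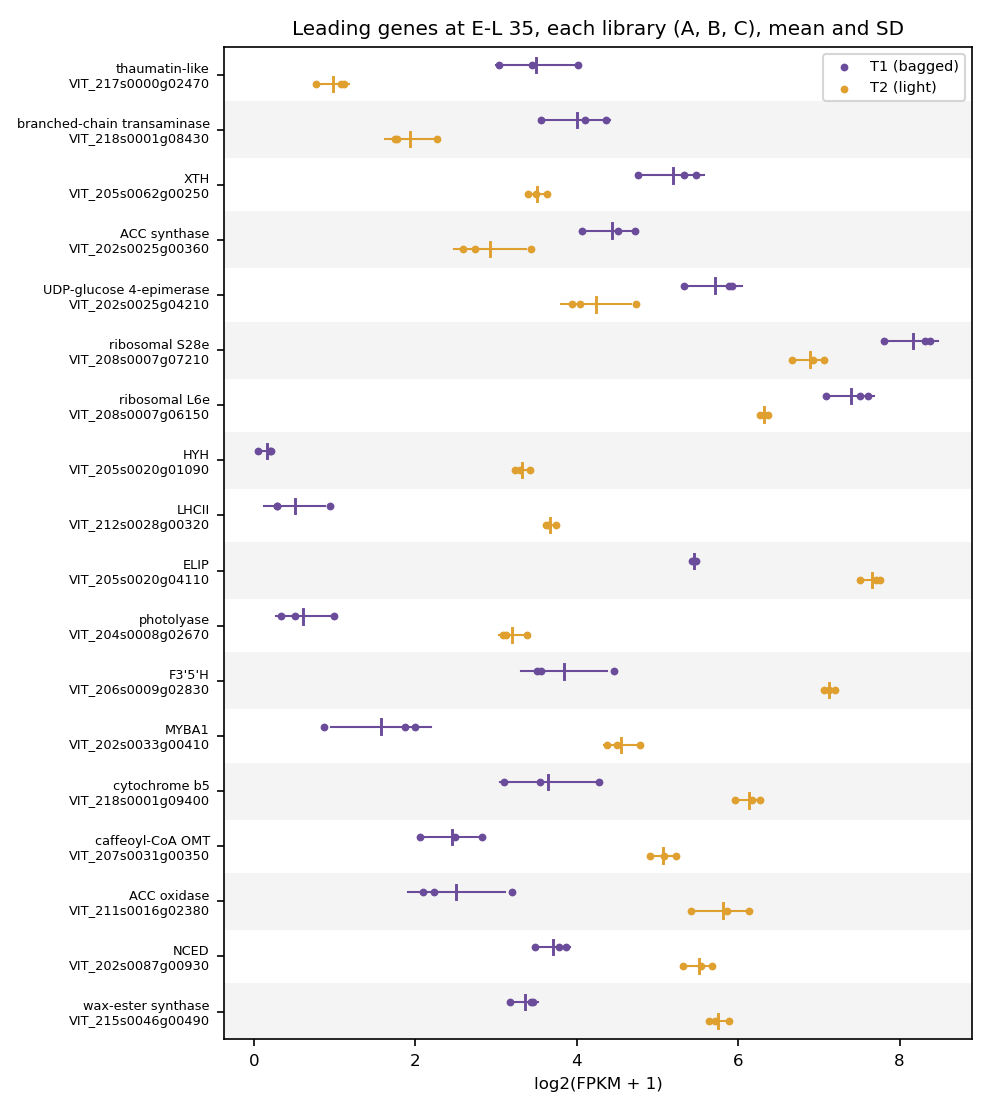
Log2(FPKM + 1) at E-L 35 of 18 genes named in the text, with T1 above T2 for each gene, points for replicates A, B and C, and a tick and bar for their mean and SD on that scale. HYH and the light-harvesting gene are near 0 in T1, and no gene shown has overlapping T1 and T2 points.

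The F3'5'H family, whose enzymes lead to the blue delphinidin-type anthocyanins, held the largest differences of any flavonoid group. Of its 9 members at 1 FPKM or more, 8 were lower in T1 and 0 higher, with a median of -2.64. The most abundant (VIT_206s0009g02830) had 10.8, 10.3 and 21 FPKM in T1 replicates A, B and C, against 146, 139 and 133 FPKM in T2 (-3.29, SE 0.32, limma adjusted p = 1.7e-08). Its neighbour VIT_206s0009g02840 gave 4.61, 5.5 and 9.37 FPKM in T1 and 51.7, 58.4 and 53.3 FPKM in T2 (-2.94, limma adjusted p = 7.2e-09). T1 replicate C was the highest T1 library in both, yet far under any T2 library. The sum over the family was 55.2 to 84.3 FPKM in T1 and 464.5 to 496.9 FPKM in T2. The copies lie close together and are alike in sequence, and how the authors assigned reads shared by copies is not given in the sources used here, so single copies are less certain than the family sum. The ninth member, VIT_208s0007g05160, which lies on another chromosome by its identifier, did not pass (0.02, limma adjusted p = 0.95), and its BLAST hit is no hydroxylase.

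Several steps before and beside F3'5'H were lower too, though by less. The next steps, DFR and LDOX, had 1 of 7 genes lower and 0 higher (median -0.05), with a lowest log2 fold change of -1.53. Their summed level was 443 to 503.6 FPKM in T2, against 279.6 to 293.6 FPKM in T1. It was thus lower in bagged berries without overlap, although 6 members did not pass. Of 8 CHS, CHI and F3H genes, 6 were lower and 0 higher (median -1.56), and of 6 F3'H genes, 4 were lower and 0 higher (median -0.80). The sum of the CHS, CHI and F3H genes was 312 to 548 FPKM in T1 and 1374 to 1677 FPKM in T2, and that of the F3'H genes 230.5 to 268 FPKM in T1 and 365 to 409.6 FPKM in T2. CHS VIT_214s0068g00920, the entry enzyme of flavonoid synthesis, had 26.2, 30.4 and 70.2 FPKM in T1 and 269.7, 274 and 199 FPKM in T2, with replicate C of each treatment nearest to the other one (-2.65, SE 0.50, limma adjusted p = 0.00042). The F3'H VIT_217s0000g07200 gave 25.2, 31.6 and 27.9 FPKM in T1 and 62.6, 60.1 and 52.2 FPKM in T2 (-1.02, limma adjusted p = 0.00026). In the general phenylpropanoid part, 4 of 17 PAL, C4H and 4CL genes were lower and 0 higher (median -0.48). One of them, PAL VIT_206s0004g02620, stood at 3.79, 5.63 and 10.1 FPKM in T1 and 55.8, 57 and 42.5 FPKM in T2 (-2.89, limma adjusted p = 7.2e-05).

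In side branches of the pathway calls were few and went both ways. Of 11 genes of the flavonol synthase (FLS) family, 1 was higher and 1 lower. FLS4 (VIT_218s0001g03470), which makes flavonols, averaged under 1 FPKM and is not among the 17518 genes. It was listed at 0 in every T1 library and at 1.00, 1.05 and 0.41 FPKM in T2 (limma adjusted p = 0.039). Of 5 LAR and ANR genes of flavan-3-ol synthesis, 1 was higher and 1 lower. LAR VIT_217s0000g04150 gave 6.15, 10.2 and 31.1 FPKM in T1 and 22.2, 23.3 and 23.9 FPKM in T2, where T1 replicate C was the highest of the 6 libraries (-0.82, limma adjusted p = 0.096). Without that library its log2 fold change was -1.43 (limma adjusted p = 0.00031). Of 22 CCR genes, 2 were higher and 1 lower, and of 14 CAD genes, 0 were higher and 1 lower, both families acting towards monolignols. CAD VIT_204s0044g00210 was at 0.15, 0.46 and 34.4 FPKM in T1, against 0.15, 0 and 0.33 FPKM in T2, so its level rested on T1 replicate C, the library with the seed transcripts. None of 27 stilbene synthase genes passed in limma (median 0.07), and 3 had an unadjusted p under 0.05.

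Anthocyanin decoration and transport genes, 8 members taken by identifier, held 6 lower and 0 higher genes, with a median of -1.54. The glutathione S-transferase VIT_204s0079g00690, of the kind that escorts anthocyanins to the vacuole, was at 70.4, 57.9 and 94.2 FPKM in T1 and 255, 277 and 249.97 FPKM in T2 (-1.83, limma adjusted p = 3.8e-06). A MATE-type transporter (VIT_216s0050g00910), of the family that loads anthocyanins into the vacuole, had 33.2, 29.2 and 56.3 FPKM in T1 and 133, 158 and 141 FPKM in T2 (-1.89, limma adjusted p = 8.3e-05). The gene VIT_218s0001g09400, a cytochrome b5 by BLAST though a desaturase by orthology, gave 7.54, 10.7 and 18.4 FPKM in T1, against 76.5, 71.2 and 61.5 FPKM in T2 (-2.50, limma adjusted p = 8.6e-07). T1 replicate C was the highest T1 library in each and still below all T2 libraries. A cytochrome b5 passes electrons to F3'5'H in petunia. The O-methyltransferase VIT_201s0010g03510, which methylates anthocyanins, stood at 25.4, 23.5 and 40.3 FPKM in T1 and 73.6, 91.7 and 80.6 FPKM in T2 (-1.47, limma adjusted p = 3.3e-06). The gene VIT_203s0017g00870, annotated as a hydroxycinnamoyltransferase and known in grape to acylate anthocyanins, gave 22.3, 18.7 and 30.4 FPKM in T1 and 48.1, 52.8 and 56.1 FPKM in T2 (-1.13, limma adjusted p = 0.0033), a call lost with a pseudocount of 0.1 (-1.16, adjusted p = 0.073). Among 4 UFGT genes 2 were lower and 0 higher, of which VIT_216s0039g02230 had 28.8, 27.6 and 34.5 FPKM in T1 and 89.6, 91.4 and 90.7 FPKM in T2 (-1.56, limma adjusted p = 1.2e-07).

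Of 12 flavonoid regulators, 2 were lower and 2 higher in T1. VviMYBA1 (VIT_202s0033g00410) had 2.99, 2.65 and 0.82 FPKM in T1 replicates A, B and C, against 26.4, 21.6 and 19.8 FPKM in T2 (-2.97, SE 0.39, limma adjusted p = 2.9e-06), and T1 replicate C was the lowest. Its neighbour VIT_202s0033g00390, annotated as a MYBA-type factor, was at 63.2, 65.5 and 89.9 FPKM in T1 and 134, 163 and 136 FPKM in T2. Its libraries did not overlap either, but the difference did not pass (-0.99, limma adjusted p = 0.19) except when only the 6 libraries were fitted (adjusted p = 0.034). VviMYBPA1 (VIT_215s0046g00170), a regulator of the flavan-3-ol branch, gave 5.38, 6.88 and 8.12 FPKM in T1 and 25.2, 24.4 and 21.4 FPKM in T2 (-1.68, limma adjusted p = 0.0038). The WD-repeat protein VIT_216s0098g00870, a partner of the MYB and bHLH factors, was higher, with 44.6, 48 and 37.1 FPKM in T1 and 32.2, 27.5 and 29.6 FPKM in T2 (0.52, limma adjusted p = 0.0029), a call lost when only the 6 libraries were fitted (adjusted p = 0.057). Flavonoid genes are expressed mainly in the skin, so the share of skin in a berry sample bears on them. A list of 17 wax and cutin genes, made in the epidermis, summed to 522 to 548 FPKM in T1 and 554 to 597 FPKM in T2, with 5 genes lower, 0 higher and a median of -0.30, and the part of skin share in the flavonoid differences was not tested.

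The wax and cutin genes differed one by one. A wax-ester synthase (VIT_215s0046g00490), which joins fatty alcohols and acids into surface wax, had 9.82, 8.01 and 10.03 FPKM in T1 and 51.4, 58 and 49 FPKM in T2 (-2.39, SE 0.19, limma adjusted p = 2.9e-10). A 3-ketoacyl-CoA synthase (VIT_214s0006g02990), which elongates fatty acids, was at 11.3, 8.31 and 12.1 FPKM in T1 and 32.3, 30.5 and 27.8 FPKM in T2 (-1.44, limma adjusted p = 8.9e-05). Both were lower without overlap, 3 further members were lower and the remaining 12 did not pass.

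**Figure D3:**
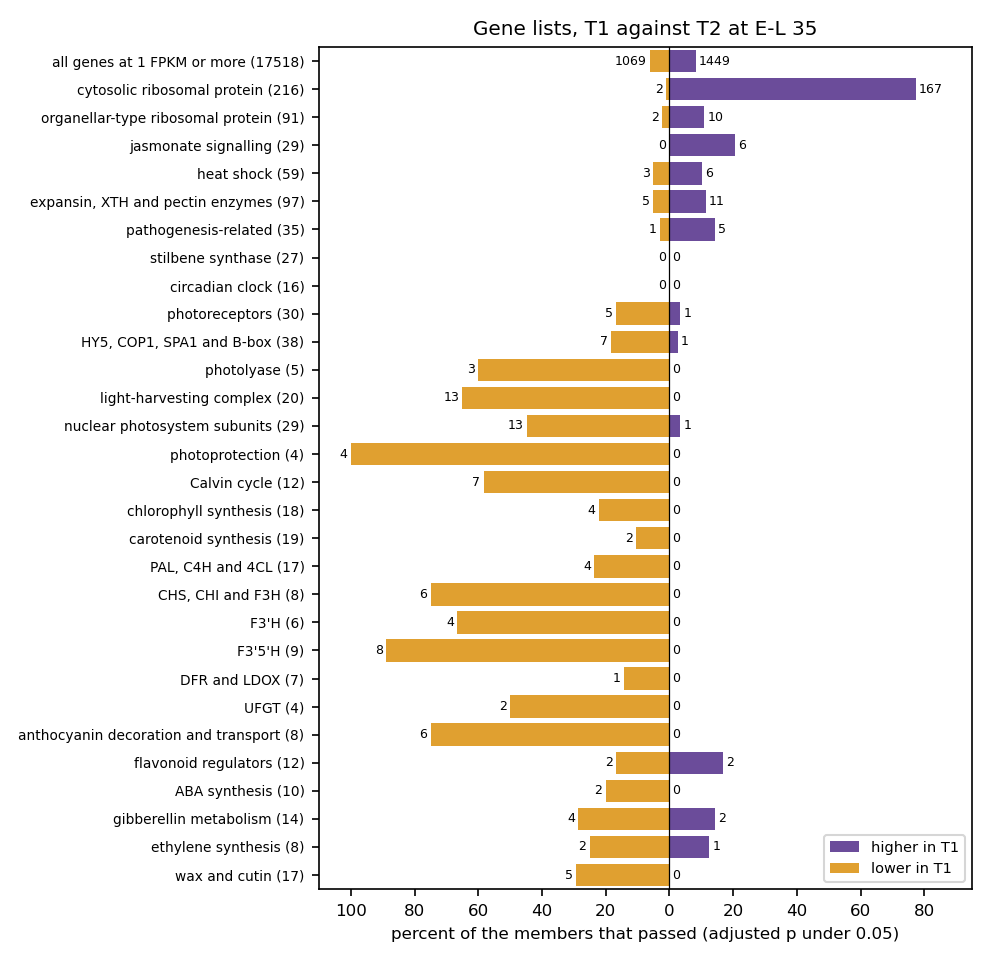
Percent of the members of 29 gene lists, and of all 17518 genes (top row), that were higher (right) or lower (left) in T1 at an adjusted p under 0.05 at E-L 35, with the numbers of genes beside the bars and members in parentheses. Cytosolic ribosomal proteins stand at 167 of 216 higher, and photoprotection and F3'5'H genes at 4 of 4 and 8 of 9 lower.

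Cytosolic ribosomal protein genes, which build the machinery of translation, were higher in bagged berries almost as one group. Of 216 members, 167 were higher and 2 lower, a median of 0.60 on the log2 scale and 10 members below 0. Their summed level was 24237 to 30345 FPKM in T1 and 16728 to 18573 FPKM in T2. The protein S28e gene VIT_208s0007g07210 had 316, 331 and 222 FPKM in T1 replicates A, B and C, against 101, 121 and 132 FPKM in T2 (1.28, SE 0.14, limma adjusted p = 1.8e-07). For protein L6e (VIT_208s0007g06150) the values were 181, 194 and 134 FPKM in T1 and 76.5, 78.6 and 81.8 FPKM in T2 (1.08, limma adjusted p = 2.8e-09). Protein S9e (VIT_214s0108g00460) gave 323, 322 and 246 FPKM in T1 and 166, 155 and 175 FPKM in T2 (0.83, limma adjusted p = 6.7e-08). T1 replicate C was the lowest T1 library in all 3 genes, and still above every T2 library. The differences were mostly under 2-fold, and many ribosomal proteins are encoded by near-identical copies, so a single gene is less certain than the group. The 2 lower members were VIT_205s0020g02860 (-0.35), a ubiquitin ligase by BLAST, and the L40e gene VIT_211s0118g00660 (-0.27), a protein made as a fusion with ubiquitin. Neither passed without T1 replicate A, T1 replicate B, T2 replicate B or T2 replicate C (limma adjusted p = 0.065 to 0.14). Among 91 genes annotated to ribosomes of plastid or mitochondrial type, 10 were higher and 2 lower (median 0.16). With libraries scaled by median of ratios 168 cytosolic members were higher and 2 lower, and without replicate C of both treatments 169 were higher and 1 lower.

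The largest increases of annotated genes were spread over functions. A thaumatin-like protein gene (VIT_217s0000g02470), of a family of defence proteins that ripe berries store, had 15.2, 9.91 and 7.18 FPKM in T1 and 0.7, 1.11 and 1.16 FPKM in T2 (2.51, SE 0.27, limma adjusted p = 1e-07). A sulfotransferase (VIT_213s0106g00550) gave 9.25, 7.11 and 4.99 FPKM in T1 and 0.28, 0.6 and 1.41 FPKM in T2 (2.22, limma adjusted p = 3.7e-08). A branched-chain amino acid transaminase (VIT_218s0001g08430), which links valine, leucine and isoleucine to their keto acids, stood at 19.5, 16.2 and 10.8 FPKM in T1, against 2.41, 2.35 and 3.83 FPKM in T2 (2.08, limma adjusted p = 9.9e-08). In all 3 genes T1 replicate A was the highest of the 6 libraries and replicate C the lowest of T1, and no T1 library reached down to T2. A second transaminase gene beside it (VIT_218s0001g08420) was at 60.6, 60.7 and 52.5 FPKM in T1 and 17.1, 23 and 26.5 FPKM in T2 (1.36, limma adjusted p = 0.00023). Of 7 such genes, 2 were higher and 0 lower, and T1 replicate C was again the lowest of its group. UDP-glucose 4-epimerase (VIT_202s0025g04210), which makes UDP-galactose for cell wall polymers, had 59.8, 58.2 and 39.1 FPKM in T1 and 14.4, 15.4 and 25.7 FPKM in T2 (1.47, limma adjusted p = 2.2e-07). A glutaredoxin (VIT_210s0003g00390), a small redox protein, gave 53.1, 77.9 and 54.6 FPKM in T1 and 14.7, 15.7 and 25.4 FPKM in T2 (1.70, limma adjusted p = 0.00098).

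Cell wall enzymes were called at shares near the 8.27% higher and 6.10% lower over all genes. Of 97 genes for expansins, xyloglucan endotransglucosylases (XTH) and pectin enzymes, 11 were higher and 5 lower (median 0.10). The XTH VIT_205s0062g00250, which cuts and rejoins xyloglucan chains, was at 39.3, 43.7 and 26 FPKM in T1 and 10.2, 9.54 and 11.4 FPKM in T2 (1.68, SE 0.28, limma adjusted p = 0.00011). A pectinesterase (VIT_201s0011g05390), which removes methyl groups from pectin, had 13.2, 8.47 and 10.4 FPKM in T1 and 0, 2.35 and 4.7 FPKM in T2 (2.11, limma adjusted p = 0.0021), a call lost when only the 6 libraries were fitted (adjusted p = 0.13). Another pectinesterase (VIT_206s0009g02590) went the other way, with 0.42, 0.88 and 1.94 FPKM in T1 and 4.88, 5.13 and 4.64 FPKM in T2 (-1.56, limma adjusted p = 0.00017). The libraries of T1 and T2 were apart in all 3. The gene VIT_211s0052g01230, listed with brassinosteroid signalling but an XTH by orthology, was listed at 0 in T1 replicates A and B and at 18.5 FPKM in T1 replicate C, against 0, 0 and 0.39 FPKM in T2. Like CAD VIT_204s0044g00210 it was high only in the library with the seed transcripts, and it did not pass (limma adjusted p = 0.37). 

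Outside these lists, a caffeoyl-CoA O-methyltransferase (VIT_207s0031g00350), of the branch to lignin, had 3.17, 6.11 and 4.62 FPKM in T1 and 36.6, 32.7 and 28.9 FPKM in T2 (-2.61, limma adjusted p = 6.9e-05). The peroxidase VIT_218s0072g00160, of a family that couples monolignols, was at 3.93, 4.49 and 4.21 FPKM in T1 and 15.9, 18.5 and 20.5 FPKM in T2 (-1.88, limma adjusted p = 7.2e-09). Both were lower in every T1 library than in any T2 library. The peroxidase was the only lower one of 17 laccase and peroxidase genes, of which 3 were higher (median -0.03). A porin of the outer mitochondrial membrane (VIT_207s0129g00100) was listed at 0 in every T1 library, against 10.1, 6.14 and 4.32 FPKM in T2 (limma adjusted p = 0.031). Leaving out any library but T2 replicate C took that call to an adjusted p of 0.062 to 0.12.

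Ethylene synthesis genes held the lowest log2 fold change of the 17518 genes. ACC oxidase VIT_211s0016g02380, which makes ethylene from its precursor ACC, had 3.71, 3.29 and 8.15 FPKM in T1 replicates A, B and C, against 57.4, 69.2 and 41.9 FPKM in T2 (-3.30, SE 0.36, limma adjusted p = 1.2e-07). ACC synthase VIT_202s0025g00360, which makes the precursor, went the other way, with 25.4, 21.8 and 15.8 FPKM in T1 and 5.68, 5.05 and 9.82 FPKM in T2 (1.51, limma adjusted p = 0.0062). In both genes replicate C of each treatment was the one nearest to the other treatment. The ACC synthase call was lost with a pseudocount of 0.1 (1.64, limma adjusted p = 0.11). Over the 8 members, 1 was higher and 2 were lower. Of 65 ethylene signalling genes, 3 were higher and 5 lower, near the shares over all genes.

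Abscisic acid is made by way of 9-cis-epoxycarotenoid dioxygenase (NCED). One NCED gene (VIT_202s0087g00930) gave 10.2, 12.8 and 13.6 FPKM in T1 and 50.2, 45.4 and 38.9 FPKM in T2 (-1.80, SE 0.29, limma adjusted p = 6.3e-05). A second one (VIT_205s0051g00670) was at 0.3, 0.42 and 0.5 FPKM in T1 and 2.52, 2.86 and 3.11 FPKM in T2 (-1.44, limma adjusted p = 3.8e-05). The most abundant one (VIT_219s0093g00550) had 84.6, 92.7 and 83.6 FPKM in T1 and 48.7, 49.1 and 61.8 FPKM in T2, which did not pass (0.71, limma adjusted p = 0.12) except when only the 6 libraries were fitted (adjusted p = 0.03). The libraries were apart in all 3 genes, and over the list 2 of 10 abscisic acid synthesis genes were lower and 0 higher. Of 46 abscisic acid signalling genes, 6 were higher and 2 lower (median 0.06).

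Gibberellin genes were mixed as well. A gene annotated as gibberellin 3-beta-dioxygenase (VIT_203s0063g01330), the last step towards active gibberellin, stood at 1.71, 5.24 and 7.74 FPKM in T1 and 29, 22.5 and 12.2 FPKM in T2 (-1.99, SE 0.34, limma adjusted p = 0.00013). A second gene of this annotation in the same region (VIT_203s0063g01290) had 20.6, 25.9 and 41.5 FPKM in T1 and 186, 196 and 74.6 FPKM in T2 (-2.27, limma adjusted p = 0.0041). T1 replicate C was the highest T1 library and T2 replicate C the lowest T2 library in both. Fitted on the 6 libraries alone, these genes had an adjusted p of 0.090 and 0.050. In all, 2 of 14 gibberellin metabolism genes were higher and 4 lower. DELLA proteins hold back gibberellin responses, and the DELLA gene VIT_204s0023g01380 gave 13.1, 12.4 and 14.6 FPKM in T1 and 28.8, 31.5 and 27.9 FPKM in T2 (-1.08, limma adjusted p = 2.2e-05). Another DELLA gene (VIT_215s0048g00270) was at 9.1, 7.8 and 8.97 FPKM in T1 and 16.7, 17 and 15.3 FPKM in T2 (-0.85, limma adjusted p = 5.7e-06). Of 56 gibberellin signalling genes, 5 were higher and 4 lower, near the shares over all genes.

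Of 29 jasmonate signalling genes, 6 were higher and 0 lower (median 0.29). The JAZ repressor TIFY 5A (VIT_210s0003g03800) had 37.8, 51.7 and 39.7 FPKM in T1 and 17.7, 14.8 and 22.9 FPKM in T2 (1.19, SE 0.22, limma adjusted p = 0.00028). A gene annotated as jasmonate O-methyltransferase (VIT_204s0023g03810), the enzyme that makes methyl jasmonate, gave 12.1, 11.3 and 6.85 FPKM in T1 and 2.65, 2.79 and 3.08 FPKM in T2 (1.50, limma adjusted p = 2.1e-06). In both genes the T1 libraries lay wholly above those of T2. Other hormone lists held calls in both directions, beside 8.27% higher and 6.10% lower over all genes. Counts were 8 higher and 9 lower of 79 auxin, 9 higher and 6 lower of 61 cytokinin and 3 higher and 5 lower of 51 brassinosteroid signalling genes. Of 23 salicylate signalling genes, 3 were higher and 0 lower. The PR-1 type gene VIT_203s0088g00810, a marker of salicylate responses, was at 72.8, 98.5 and 45.8 FPKM in T1 and 2.41, 2.25 and 66.1 FPKM in T2 (2.95, limma adjusted p = 0.059). Here T2 replicate C stood within the T1 range, and without it the log2 fold change was 4.39 (limma adjusted p = 0.0042). Among the cytokinin genes, a histidine kinase receptor (VIT_213s0019g01180) had 41.6, 50.1 and 40.7 FPKM in T1 and 20.01, 19.4 and 24.9 FPKM in T2 (1.01, limma adjusted p = 7e-05).

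Sugar, water and stress lists held smaller shares of calls than the antenna list, beside 8.27% higher and 6.10% lower over all genes. Sucrose and hexose metabolism had a share of lower calls above that over all genes. Of 21 genes of sucrose and hexose metabolism, 4 were lower and 0 higher, among them a fructokinase (VIT_208s0007g01640), which phosphorylates fructose, with 1.06, 1.35 and 1.15 FPKM in T1 and 4.21, 4.18 and 3.96 FPKM in T2 (-1.23, limma adjusted p = 0.0001). A sucrose-phosphate synthase (VIT_211s0118g00200), which makes sucrose, was at 186, 185 and 226 FPKM in T1 and 284, 307 and 270.1 FPKM in T2 (-0.53, limma adjusted p = 0.00061). Of 20 sugar transporters 1 was higher and 1 lower, and of 23 aquaporins, which pass water through membranes, 2 were higher and 2 lower. Of 59 heat shock genes, 6 were higher and 3 lower, and the HSP70 gene VIT_208s0007g00130 had 80.2, 92.5 and 56.7 FPKM in T1 and 32.5, 32.3 and 40.4 FPKM in T2 (1.08, limma adjusted p = 5.8e-05). Of 35 pathogenesis-related genes, 5 were higher and 1 lower. The summed level of that list was 5472 to 9062 FPKM in T1 and 10372 to 10559 FPKM in T2, so the sum was lower in T1 while more members were called higher than lower. Calls numbered 3 higher and 8 lower of 58 glutathione S-transferases, 3 higher and 5 lower of 36 histone and nucleosome genes, 3 higher and 3 lower of 36 cell cycle genes, and 1 higher and 1 lower of 48 WRKY factors. The glutathione S-transferases and the histone list had the larger shares of lower members among these 4 lists, both above the share over all genes.

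How the DEGs at E-L 35 behave in sunlit berries was read from T2 alone, between E-L 31 and E-L 36, a contrast that holds no library of E-L 35. Of the 172 DEGs higher in T1, 144 (83.7%) fell and 2 (1.16%) rose in T2 over those stages by the same thresholds, while 19.8% of all genes fell and 5.76% rose. Of the 316 lower in T1, 103 (32.6%) rose and 80 (25.3%) fell. The rising ones include the F3'5'H gene VIT_206s0009g02830, with a change of 4.43 on the log2 scale from E-L 31 to 36 in T2, and UFGT VIT_216s0039g02230, with 2.64. Among the falling ones is the light-harvesting gene VIT_212s0057g00630, with -2.11. The higher DEGs that fell in T2 include the thaumatin-like gene VIT_217s0000g02470 (-4.26) and S28e VIT_208s0007g07210 (-2.43). By the adjusted p alone, 176 of the 216 cytosolic ribosomal protein genes fell in T2 over those stages and 1 rose (median -0.93). Over all 17518 genes, 7003 fell and 3672 rose by that rule (median -0.21). Among the genes lower in T1 the share that rose was thus well above that over all genes (32.6 against 5.76%). The share that fell was nearer to it (25.3 against 19.8%).

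Each library was placed on this course by how much of the T2 change from E-L 31 to 36 it had covered, as a median over genes. For the 3467 genes that fell, the T1 libraries A, B and C at E-L 35 stood at 56.3, 56.1 and 67.1% of the change, against 80.1, 76.8 and 65.4% in T2. For the 1009 genes that rose, they stood at 50.6, 47.5 and 61.7%, against 75.9, 79.8 and 76.0% in T2. The T1 libraries were behind those of T2 on the rising genes without overlap, whereas on the falling genes replicate C of T1 was ahead of replicate C of T2. These positions describe the libraries and carry no test, and a sampling of berries at unequal ripeness and an effect of the bag on ripening cannot be told apart.

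**Figure D4:**
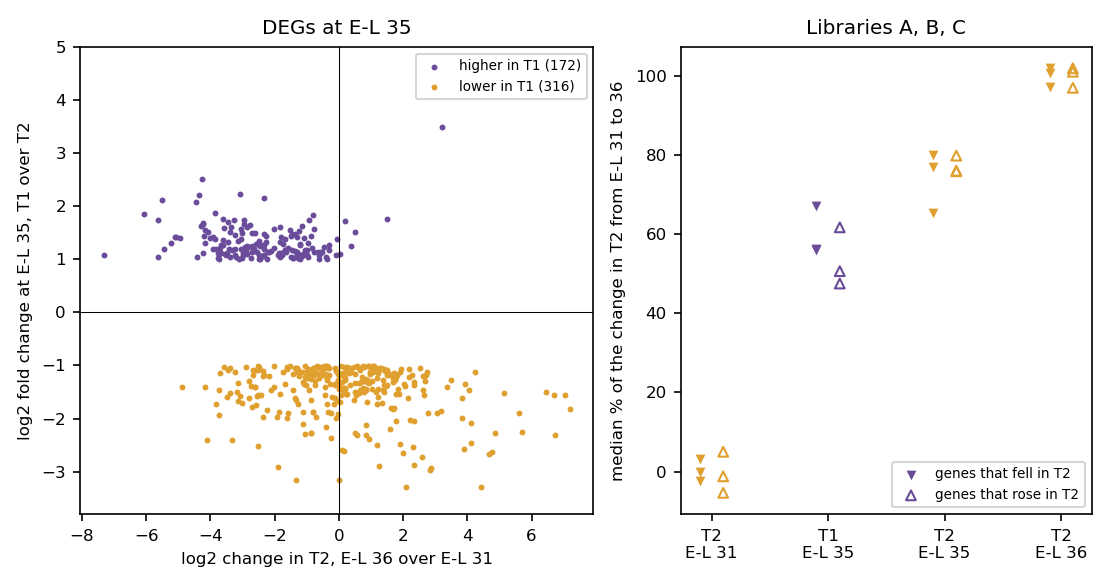
Left, log2 fold change at E-L 35 (T1 over T2) of the 488 DEGs against their log2 change in T2 from E-L 31 to E-L 36, and right, the median percent of that T2 change reached by each library for 3467 falling (filled) and 1009 rising (open) genes. Most higher DEGs (144 of 172) lie among genes that fell in T2, lower DEGs are on both sides, and the T1 libraries at E-L 35 stand at 47.5 to 67.1%, against 65.4 to 80.1% in T2.

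The effect of bagging at E-L 35 was set against that at E-L 31, the sampled stage before it, in the same model. The 2 effects share no library. The effect at E-L 35 was above that at E-L 31 in 2957 genes (16.9%) and below it in 1774 (10.1%) at a limma adjusted p under 0.05. The cytosolic ribosomal proteins turned round, with 0 of 216 higher and 143 lower when sampled at E-L 31 (median -0.42, when 12.7% of all genes were higher and 18.7% lower), and the effect at E-L 35 was above that at E-L 31 in 185 of them. Protein L38e (VIT_205s0102g01220) averaged 115 ± 9.57 FPKM in T1 and 62.6 ± 4.81 FPKM in T2 at E-L 35 (SD, n = 3 each), and 119 FPKM in T1 and 201 FPKM in T2 at E-L 31, with effects of 0.87 and -0.75 and a difference between them of 1.62 (limma adjusted p = 9.4e-09). Part of the flavonoid pathway turned the other way. At E-L 31, 4 of the 8 genes of CHS, CHI and F3H were higher and 0 lower, and PAL VIT_206s0004g02620 had an effect of 2.31 there, against -2.89 at E-L 35 (difference -5.19, limma adjusted p = 1.4e-06). For F3'5'H, 3 of 9 genes were higher and 0 lower at E-L 31, and the effect at E-L 35 was below that at E-L 31 in 8. At E-L 31 there were no higher calls in DFR and LDOX, with 0 higher and 2 lower of 7, in UFGT, with 0 higher and 1 lower of 4, or in decoration and transport, with 0 higher and 0 lower of 8 and an unadjusted p under 0.05 in 1. Light-harvesting genes had 17 of 20 members lower at E-L 31, beside 13 at E-L 35, and the effect was less negative at E-L 35 in 6 of them and more negative in 0. Seed transcripts differed between the treatments at E-L 31, with sums of 10347 to 46115 FPKM in T1 and 791 to 9923 FPKM in T2, and their part in these differences between stages was not tested.

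Against E-L 36, the next stage, fewer genes differed in their response. The effect at E-L 35 was above that at E-L 36 in 92 genes (0.525%) and below it in 104 (0.594%), again in the same limma model, and this count moved between 80 and 365 in total when single E-L 35 libraries were left out, with the lowest without T1 replicate B and the highest without T1 replicate C. At E-L 36, when 1.28% of all genes were higher and 1.41% lower, 0 of 9 F3'5'H and 0 of 8 decoration and transport genes passed in limma, with 1 and 0 at an unadjusted p under 0.05, and the effect at E-L 35 was below that at E-L 36 in 5 and 6 of them. The anthocyanin O-methyltransferase VIT_201s0010g03510 had an effect of 0.38 at E-L 36, against -1.47 at E-L 35 (difference -1.85, limma adjusted p = 0.00064). Ribosomal proteins stood at 7 higher and 0 lower at E-L 36, and 29 of 216 had an effect at E-L 35 above that at E-L 36. In photoprotection 3 of 4 genes were lower in each of the neighbouring stages, and HYH (VIT_205s0020g01090) was lower in E-L 31 (-2.37) and E-L 36 (-2.84) too, at limma adjusted p = 8.9e-09 and 7e-09. In all, 54 of the 316 genes lower at E-L 35 passed as lower at both E-L 31 and E-L 36 as well, and 0 of the 172 higher ones passed as higher at both.

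**Figure D5:**
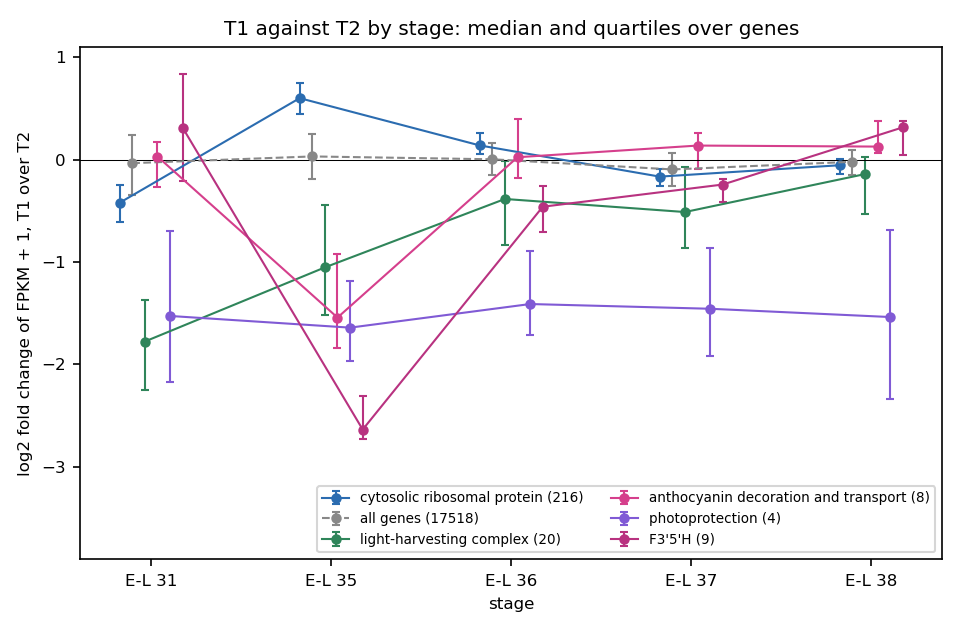
Median log2 fold change of FPKM + 1 (T1 over T2, vertical) of 5 gene lists and of all 17518 genes at 5 stages, E-L 31 first and E-L 38 last, with bars from the lower to the upper quartile over genes and members in parentheses. The ribosomal proteins peak at 0.60 and F3'5'H reaches -2.64 at E-L 35, whereas photoprotection genes stay between -1.64 and -1.41 at all 5 stages.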

How the data were processed

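Single-end RNA-seq of poly(A) RNA from 42 libraries (14 groups of 3) was aligned by the authors to the PN40024 grape genome, with Bowtie2 2.2.5 per the submitters' processing notes. The counting tool is not given in the sources used here. The deposited values are FPKM made by the authors from these alignments and rounded to 2 decimals, and they hold no counts. The study lists reads per library, which were not used here, so no counting interval is given. From them, log2(FPKM + 1) was fitted with limma 3.58.1 (R 4.3.3) as 14 group means over all 42 libraries with a mean-variance trend, on genes averaging 1 FPKM or more in a group, with Benjamini-Hochberg adjustment over 21902 genes. All fold changes are therefore on the log2(FPKM + 1) scale, which understates those of low genes. The study itself used NOISeq, which was not used here. p-values measure the spread between replicates of 1 season and vineyard.

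DEGs differed by 2-fold or more at an adjusted p under 0.05. In gene lists, made from the annotation columns and the study's gene families, only the adjusted p was used. Members and lists were chosen with earlier results of these data known. Candidates for naming were the 15 largest increases and decreases with an annotation, 5 FPKM and no overlap, and up to 4 members per list by adjusted p. Genes the study text names and the 5 smallest adjusted p per contrast between stages were added. These gave 228 genes, of which only a part is named in the text. The genes VIT_202s0033g00390, VIT_203s0017g00870, VIT_205s0020g02860, VIT_208s0007g05160, VIT_208s0007g07210, VIT_211s0118g00660 and VIT_214s0128g00200 were chosen after their values were seen.

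In data simulated for this comparison on 21902 genes, 91% of 2-fold and 100% of 4-fold changes were recovered among 200 changed genes, and 8 of 199 calls were false. Calls in the simulation used the adjusted p under 0.05 alone. Recovery by the DEG rule, which adds the fold threshold, was not measured. The changed genes were drawn only from genes well above 1 FPKM in T2, and the noise was independent between genes and libraries. Recovery near 1 FPKM and false calls from shifts of a whole library were thus not measured. Alternatives were another pseudocount, filter, scaling and set of libraries, no trend, a replicate block, and leaving out each library. Figures were drawn with matplotlib 3.10.9.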

Additional observations from a re-analysis of the deposited data

Results flagged for a closer look

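The effect of bagging differed between stages in many genes, by the test of the difference itself in the limma model. Between E-L 35 and E-L 31 it differed in 4731 genes, and between E-L 35 and E-L 36 in 196.

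Against E-L 31, the 5 annotated genes with the smallest adjusted p were these. A polygalacturonase (VIT_208s0007g08330), which cuts pectin, averaged 307 ± 52.4 FPKM in T1 and 208 ± 1.15 FPKM in T2 at E-L 35 (SD, n = 3 each), but 0.227 FPKM in T1 and 28.5 FPKM in T2 at E-L 31. Its effect at E-L 35 minus that at E-L 31 was 4.80 (SE 0.43, limma adjusted p = 9.4e-09), and almost all of it lay in the earlier stage. A KUP-type potassium transporter (VIT_217s0000g01930) averaged 274 ± 6.91 FPKM in T1 and 222 ± 13.1 FPKM in T2 at E-L 35, but 4.48 FPKM in T1 and 38.1 FPKM in T2 at E-L 31, a difference of effects of 3.08. The other 3 turned from lower to higher in T1 and belong to ribosomes or their assembly, with differences of effects of 1.62 for protein L38e (VIT_205s0102g01220), 1.26 for protein S12e (VIT_211s0037g00080) and 1.58 for a U3 snoRNA-associated protein (VIT_215s0046g02690).

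Against E-L 36, the differences of effects of the 5 genes chosen in the same way were as follows. The anthocyanin O-methyltransferase VIT_201s0010g03510 had -1.85. A cytochrome P450 of family 77 (VIT_213s0074g00390) had -1.77, with 13.1 ± 2.96 FPKM in T1 and 28.4 ± 3.85 FPKM in T2 at E-L 35 (SD, n = 3 each), and 38.6 FPKM in T1 and 23.4 FPKM in T2 at E-L 36. An adenosine deaminase (VIT_210s0116g00820) had -1.57, with 8.39 ± 1.02 FPKM in T1 and 25.4 ± 1.62 FPKM in T2 at E-L 35, and 27.5 FPKM in T1 and 26.3 FPKM in T2 at E-L 36. The gene VIT_211s0016g04540, whose annotations name different proteins, had -1.47. Only protein L6e (VIT_208s0007g06150) differed in the other direction among these 5, with 0.96.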

How the results depend on the processing

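Of 70 named genes, 53 stayed on their side of the threshold and in their direction under all 15 settings, and 59 under all settings that kept every library. Median-of-ratios scaling, no trend and no filter changed no call among them, and 6 calls were lost and 2 gained with only the 6 libraries of E-L 35. Directions turned for 3 genes that did not pass: VIT_208s0007g05160 had -0.074 without T1 replicate B and -0.039 without T2 replicate A, VIT_211s0052g01230 -0.16 without T1 replicate C, and VIT_214s0128g00200 -0.65 without T1 replicate C and -0.63 without replicate C of both treatments.

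The 488 DEGs became 609 with a pseudocount of 0.1, 355 with only the 6 libraries, 522 with median-of-ratios scaling, 352 to 592 with single libraries left out, and 701 without replicate C of both treatments, a setting chosen after seeing the data. In that setting 50.6% of DEGs were higher in T1, against 35.2% of the 488. The genes whose effect differed from E-L 31 numbered 2398 (70.5% above) when only the 12 libraries of both stages were fitted, in place of 4731 (62.5% above), and 3802 to 4833 with single libraries left out. Those that differed from E-L 36 numbered 80 to 365 in place of 196 with single libraries left out (98 without T1 replicate A, 96 without T2 replicate A or B), and 385 (64.4% above) without replicate C of both treatments, in place of 46.9% above. Ribosomal genes higher in T1 ranged from 122 with only the 6 libraries to 171, and light-harvesting genes lower in T1 from 10 with a pseudocount of 0.1 to 14. With the replicate letter as a replicate block there were 482 DEGs, 4670 and 186 genes whose effect differed from E-L 31 and E-L 36, 168 ribosomal and 13 light-harvesting genes, and no call of a named gene changed. On average, the deviations from the group means gave no sign that the letters A, B and C pair the libraries. They correlated at a mean r of 0.00222 for the same letter (-0.297 to 0.328) and -0.00108 for other letters. Of 42 libraries, 17 were nearest to their own letter. At E-L 35, T1 and T2 libraries of the same letter correlated at -0.0075 (A), 0.012 (B) and 0.011 (C). Since the values are FPKM without counts, no limit is given for a gene listed at 0.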
